A study of Mus musculus with 6 samples.

Results

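The genes described are the PIWI proteins of the mouse and their partners in making and using PIWI-interacting RNAs (piRNAs), without the Tudor proteins. The set holds 10 genes of the 37924 in the deposited table, matched by gene symbol: Piwil1, Piwil2, Piwil4, Mov10l1, Pld6, Asz1, Henmt1, Gtsf1, Mael and Tex15. Whole ovaries of mice on a C57BL/6J/129S7/SvEvBrd background were profiled by RNA sequencing at postnatal day 14. The 3 control libraries came from animals with a homozygous floxed allele and no Cre, and the 3 conditional knockout (cKO) libraries from animals with the same floxed allele that also carried Gdf9iCre+, a Cre under the promoter of Gdf9, which oocytes use. A library is a pool of 3 mice, with 1 ovary taken per mouse. The Cre acts in oocytes, while the RNA comes from every cell of the ovary. The question was which ovarian transcripts differ after the oocyte deletion, here for the piRNA genes.

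piRNAs are small RNAs of germ cells that guide PIWI proteins to transcripts of transposons, which are then cut in the cytoplasm or silenced by chromatin marks and DNA methylation in the nucleus. Precursors are taken up by a helicase, trimmed near mitochondria in a germ cell granule, and methylated at their end. In the mouse the pathway is essential for spermatogenesis, whereas females that lack its main proteins are fertile, and mouse oocytes also make small interfering RNAs with Dicer.

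Levels are given as FPKM, a fragment count divided by transcript length and by the library's mapped total, so levels of different genes are on 1 scale per length. The depth of the libraries was estimated from the low values at 19.6 to 24.9 M fragments, and 13170 to 13649 genes per library reached an FPKM of 1. Changes are cKO minus control on the log2(FPKM + 1) scale, with the standard error and the adjusted p of limma over the 14934 genes with a mean FPKM of at least 0.5. The added 1 makes these changes smaller than the ratio of means for genes of low level. A gene rose or fell where its adjusted p was below 0.05. Of the 10 genes, 9 entered the test, with Piwil1 close to the filter at a mean of 0.53 FPKM and Piwil4 below it at 0.30 FPKM.

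The set of RefSeq promoter sequences used here (build GRCm38.p6) held 8 of the 10 genes and had no entry for Piwil2 and Tex15. Promoter stretches are shown because of the palindromic E-box CACGTG, a site read by basic helix-loop-helix proteins. It occurred in the 250 bases before the RefSeq start of 4 of the 8, namely Mael, Mov10l1, Pld6 and Piwil1. The same search found it in 6.02% of 32851 mouse promoters and in 8.18% of the 13113 promoters of genes tested here. The stretches below lie before every annotated start of the gene and are written in the direction of transcription, with the E-box in capitals. Mael lies on chr1:166238748-166238994 (minus strand), Mov10l1 on chr15:88982744-88982890 (plus strand) and Pld6 on chr11:59787658-59787907 (minus strand).
Mael: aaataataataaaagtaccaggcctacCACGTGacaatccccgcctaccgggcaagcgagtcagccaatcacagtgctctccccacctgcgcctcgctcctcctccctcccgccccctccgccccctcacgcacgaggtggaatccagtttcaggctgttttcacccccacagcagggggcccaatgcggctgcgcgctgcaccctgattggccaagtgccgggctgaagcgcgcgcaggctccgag
Mov10l1: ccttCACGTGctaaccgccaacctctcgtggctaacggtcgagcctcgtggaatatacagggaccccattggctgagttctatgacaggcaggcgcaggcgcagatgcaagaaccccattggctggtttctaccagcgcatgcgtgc
Pld6: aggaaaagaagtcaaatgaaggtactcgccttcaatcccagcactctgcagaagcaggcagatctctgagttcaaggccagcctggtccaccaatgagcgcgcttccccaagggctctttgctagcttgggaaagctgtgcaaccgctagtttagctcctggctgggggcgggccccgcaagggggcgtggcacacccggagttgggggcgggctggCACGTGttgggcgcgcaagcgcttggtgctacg
The E-box began 223 bases before the RefSeq start of Mael, 246 bases before that of Mov10l1 and 33 bases before that of Pld6. Piwil1 had a pair, at 179 and 154 bases. The GENCODE range of Piwil1 begins at chr5:128702524, upstream of its window (chr5:128735996-128736245), so the whole window lies within the annotated gene. For Henmt1 the window (chr3:108940307-108940556) also lies within the gene, which begins at chr3:108939873. A further annotated start of Piwil1 lies inside its window, after the first 75 bases, which exons of 4930553I04Rik overlap. The box at 179 bases spans that start and the box at 154 bases lies past it, so neither lies before every start. The same 4 genes were those with the box CCAAT on either strand, which NF-Y binds and which 33.8% of all promoters held. Mael had 3 such boxes, Mov10l1 had 2, and Piwil1 and Pld6 had 1 each. That of Piwil1, at 169 bases, also lies past the annotated start inside its window. The wider E-box CANNTG, which includes CACGTG, was in 6 of the 8 and in 66.2% of all promoters. Neither TAATTG, a homeobox site of the kind NOBOX reads, nor AACNGTT, a Myb site, was found in the 8 windows, against 7.17% and 3.8% of all promoters. At shares this low, 8 windows are too few for an absence to set these genes apart. Both strands were searched. The windows of the 8 genes held a median of 15.5 CpG and 62.8% G or C, against 6 and 52.4% over all promoters. Of the genes with the E-box, Mael rose in cKO, and Mov10l1, Pld6 and Piwil1 did not pass the test described next. These matches describe letters only, and no binding was measured.

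**Figure D1:**
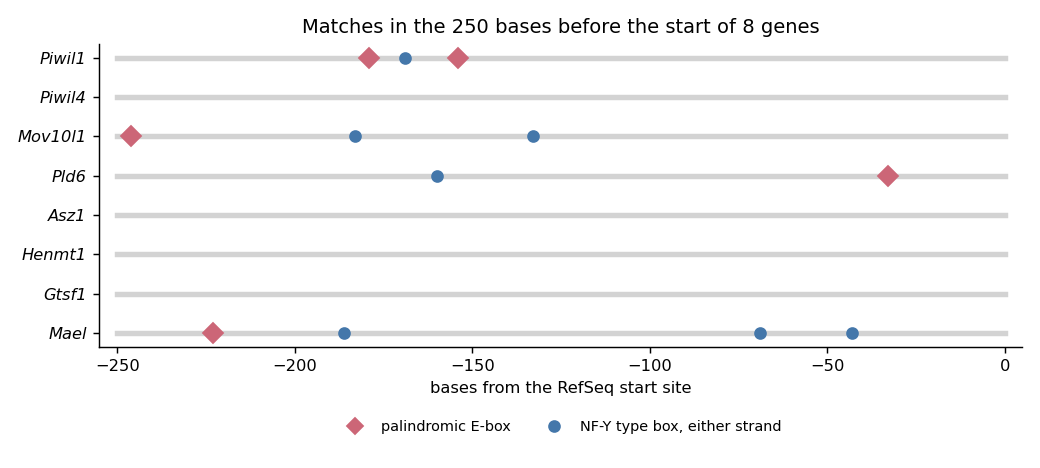
Positions of 2 motifs in the 250 bases before the RefSeq start site (x axis, bases from the start) of the 8 genes with a promoter entry (rows). Diamonds are palindromic E-boxes and circles are boxes of the NF-Y type on either strand; both kinds occur in Mael, Mov10l1, Pld6 and Piwil1, and neither in the other rows.

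In cKO ovaries 2 of the 9 tested genes rose, Mael and Piwil2, and 1 fell, Tex15, while 6 did not pass. Over all tested genes 2.24% rose and 2.09% fell, or 334 and 312 genes. The split moved with the scaling, to 270 and 421 after quantile normalisation, 254 and 577 with libraries centred on their median, and 77 and 2309 with libraries centred on oocyte genes. The groups did not overlap for 4 of the 9 in the higher direction (Mael, Piwil2, Mov10l1 and Gtsf1), against 18% of all tested genes, and for 1 in the lower direction (Tex15), against 12%. Such a higher level was not particular to the set. It was also seen for 14 of 29 tested oocyte marker genes and 9 of 25 tested other piRNA pathway genes, lists described below. In the lower direction these lists had 0 and 2. An unadjusted p below 0.05 was reached by 4 of the 9, against 24.3% of all tested genes. The median change of the 9 was 0.35, beside 0.05 over all tested genes. The genes were chosen with earlier results of these data known, so these counts describe the set and do not test it. The sample label numbers fall in 2 ranges of unstated meaning, and cKO 2 and cKO 3 form the second range. In the first range, the 3 controls against cKO 1, the changes were -1.07 for Tex15, 1.06 for Mael and 1.21 for Piwil2. This fit rests on 1 cKO library. The mitochondrial share of summed FPKM was lowest in cKO 1, at 7.31% against 10.7% to 14.2% in the other libraries.

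**Figure D2:**
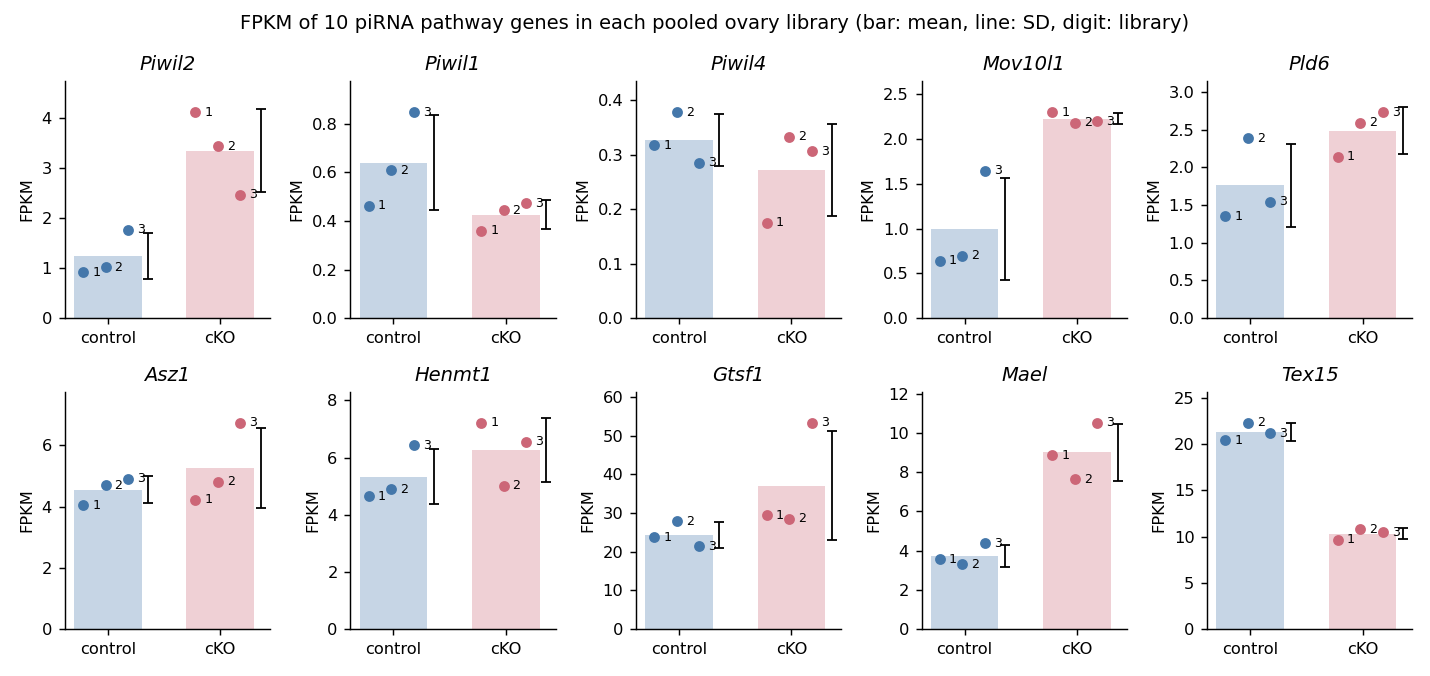
FPKM (y axis, from 0, a scale of its own per gene) of the 10 genes in control (blue) and cKO (red) libraries; bars are means, vertical lines beside them are ± SD (n = 3 libraries), and digits number the libraries. Mael and Piwil2 lie higher in all cKO libraries, and Tex15 lies between 9.64 and 10.8 FPKM in cKO against 20.4 to 22.3 FPKM in control.

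Piwil2 (ENSMUSG00000033644, chr14:70372477-70429383, minus strand) encodes MILI, the PIWI protein that cuts transposon transcripts and feeds the ping-pong cycle that amplifies piRNAs. Control 1 to 3 stood at 0.922, 1.03 and 1.77 FPKM, and cKO 1 to 3 at 4.13, 3.45 and 2.47 FPKM. The lowest cKO library lay above the highest control library, and control 3 and cKO 3 were the libraries nearest to the other group. Piwil2 rose from 1.24 ± 0.463 to 3.35 ± 0.832 FPKM (SD, n = 3), a 2.70-fold ratio of means. The limma estimate was 0.96 on the log2 scale (standard error 0.20, adjusted p 0.0428). The call was lost without control 1 (adjusted p 0.168), control 2 (0.183), cKO 1 (0.141) or cKO 2 (0.103), with changes of 0.83 to 1.12 over the 6 fits that left out 1 library. Without control 3 and cKO 3 the change was 1.27, which had to be larger because these libraries lay nearest to the other group.

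Piwil1 (ENSMUSG00000029423, chr5:128702524-128755474, plus strand) encodes MIWI, the PIWI protein of later male germ cells. Control 1 to 3 stood at 0.464, 0.609 and 0.849 FPKM, and cKO 1 to 3 at 0.361, 0.445 and 0.474 FPKM, so the groups overlapped. The means were 0.640 ± 0.194 and 0.427 ± 0.0589 FPKM (SD, n = 3), and the log2 change of -0.20 ± 0.15 (standard error) had an adjusted p of 0.462 by limma. The 95% interval ran from -0.54 to 0.15. At the estimated depths a library held about 32.5 to 64.3 fragments of Piwil1. Piwil4 (ENSMUSG00000036912, chr9:14696230-14740733, minus strand) encodes MIWI2, the nuclear PIWI protein that directs DNA methylation in fetal male germ cells. It was the lowest of the 10 genes, with control 1 to 3 at 0.318, 0.378 and 0.285 FPKM and cKO 1 to 3 at 0.175, 0.333 and 0.306 FPKM, or about 12.9 to 25.7 fragments. Its groups overlapped as well. The antisense gene Gm10706 overlaps its exons, and without a stated strand setting fragments of these genes cannot be told apart. With no filter on low values Piwil4 had a change of -0.06 at an adjusted p of 0.649 by limma.

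The PIWI genes differed in their mixture. Of their summed FPKM, Piwil2 made up 54.1%, 51.0% and 61.0% (control 1 to 3) and 88.5%, 81.6% and 76.0% (cKO 1 to 3). The sum itself was 2.21 ± 0.623 FPKM for control and 4.05 ± 0.722 FPKM for cKO (SD, n = 3). Piwil2 stood at 1.92 ± 0.208 times the FPKM of Piwil1 in control and at 8.14 ± 3.13 times in cKO. These shares follow from the values above and were not tested.

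Mov10l1 (ENSMUSG00000015365, chr15:88982909-89055152, plus strand) encodes the RNA helicase that binds PIWI proteins and takes up piRNA precursors. Control 1 to 3 stood at 0.641, 0.697 and 1.65 FPKM, and cKO 1 to 3 at 2.30, 2.18 and 2.20 FPKM. The cKO libraries were close together and all above control, while control 3 lay nearer to the cKO libraries than to the other controls. The means were 0.996 ± 0.566 and 2.23 ± 0.0650 FPKM (SD, n = 3). The limma estimate of 0.73 (standard error 0.19, adjusted p 0.0802) did not pass. Of the 6 fits that left out 1 library, only that without control 3 passed (change 0.95, adjusted p 0.0138 by limma). Over these 6 fits the change ran from 0.61 to 0.95, and the adjusted p reached 0.268. With control 3 and cKO 3 left out the change was 0.96 at an adjusted p of 0.0366. Leaving out the control nearest to cKO had to widen the difference, so such a fit does not make the change firmer. Mov10l1 passed in 3 of 16 alternatives.

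None of the other genes that make piRNAs passed. Pld6 (ENSMUSG00000043648, chr11:59783897-59787645, minus strand), whose product is the mitochondrial enzyme linked to cutting piRNA precursors, had 1.35, 2.38 and 1.54 FPKM (control 1 to 3) and 2.14, 2.59 and 2.73 FPKM (cKO 1 to 3). Control 2 lay among the cKO libraries, and the change of 0.35 (95% interval -0.03 to 0.73) had an adjusted p of 0.238 by limma. Asz1 (ENSMUSG00000010796, chr6:18050964-18109061, minus strand), which encodes a scaffold protein of the granules at mitochondria, had 4.05, 4.69 and 4.92 FPKM (control 1 to 3) and 4.23, 4.81 and 6.75 FPKM (cKO 1 to 3). Only cKO 3 lay outside the control range, and the change was 0.16 (95% interval -0.21 to 0.52; adjusted p 0.584). Henmt1 (ENSMUSG00000045662, chr3:108939873-108960774, plus strand), which encodes the methyltransferase that acts on the 3′ end of piRNAs, had 4.66, 4.89 and 6.43 FPKM (control 1 to 3) and 7.22, 5.01 and 6.55 FPKM (cKO 1 to 3). The groups overlapped, and the change was 0.20 (95% interval -0.16 to 0.56; adjusted p 0.478). Exons of Gm9857 on the opposite strand overlap those of Henmt1, with the same limit as for Piwil4. All 3 intervals reach past 0.5, so these data do not show that any of the 3 genes was level.

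Gtsf1 (ENSMUSG00000022487, chr15:103402405-103430470, minus strand) encodes a small zinc finger protein that binds PIWI proteins and is needed for their cutting activity. It had the highest level of the 10 genes in every library, at 23.7, 27.9 and 21.4 FPKM (control 1 to 3) and 29.4, 28.5 and 53.4 FPKM (cKO 1 to 3). The 3 cKO libraries lay above all controls, but cKO 1 and cKO 2 only narrowly, and cKO 3 stood apart. The means of 24.3 ± 3.30 and 37.1 ± 14.1 FPKM (SD, n = 3) gave a limma estimate of 0.54 (standard error 0.23, adjusted p 0.209), which did not pass. Without cKO 3 the change was 0.25 (adjusted p 0.270).

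Mael (ENSMUSG00000040629, chr1:166201201-166238747, minus strand) encodes Maelstrom, a protein of the germ cell granules needed for transposon silencing and for meiosis in the male. Control 1 to 3 stood at 3.56, 3.30 and 4.38 FPKM, and cKO 1 to 3 at 8.87, 7.64 and 10.5 FPKM. All cKO libraries lay well above all controls. Mael rose from 3.75 ± 0.563 to 9.02 ± 1.45 FPKM (SD, n = 3), a 2.41-fold ratio of means. The limma estimate was 1.07 on the log2 scale (standard error 0.14, adjusted p 0.0169). It ranked 63 of 14934 genes by p. The change lay between 0.97 and 1.18 with any 1 library left out, and the call was lost without control 1 (adjusted p 0.107), control 2 (0.0986) or cKO 1 (0.0929).

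Tex15 (ENSMUSG00000009628, chr8:33516738-33585582, plus strand) encodes a nuclear protein that works with MIWI2 in silencing transposons in male germ cells and is also needed for meiotic recombination there. Control 1 to 3 stood at 20.4, 22.3 and 21.2 FPKM, and cKO 1 to 3 at 9.64, 10.8 and 10.5 FPKM. Libraries of a group were close together and the groups far apart. Tex15 fell from 21.3 ± 0.955 to 10.3 ± 0.595 FPKM (SD, n = 3), to 0.483 of the control mean. The limma estimate was -0.98 on the log2 scale (standard error 0.08, adjusted p 0.00803). By p it ranked 6 of 14934 genes. With 1 library left out the change lay between -1.01 and -0.94, and the call was lost without control 1 (0.0526), control 2 (0.0544) or cKO 1 (0.0510). Tex15 was also the best measured of the set, with about 1856 to 3975 fragments a library on a transcript of 8405 bases. No exon of another gene overlaps its exons in GENCODE M21, from which the gene positions come (build GRCm38).

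**Figure D3:**
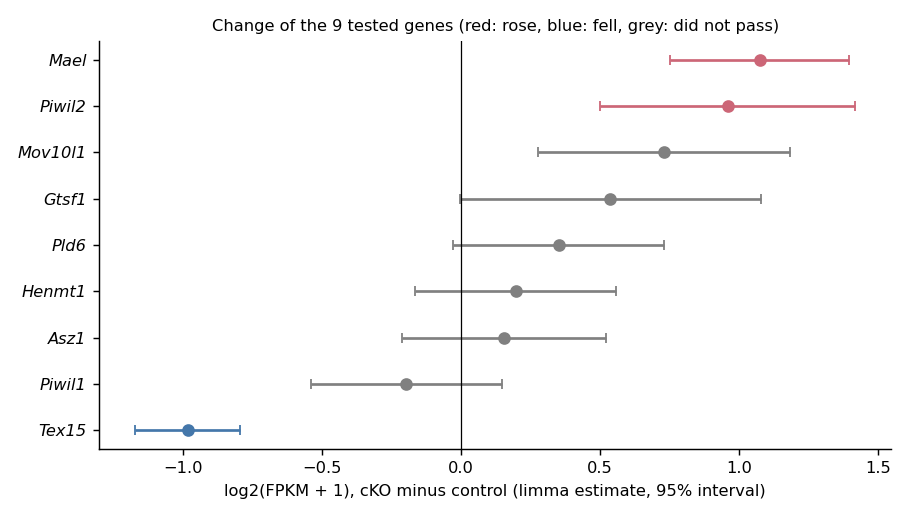
Change of the 9 tested genes on the log2(FPKM + 1) scale, cKO minus control (x axis), with the limma estimate as a point and its 95% interval as a bar. Mael and Piwil2 (red) rose, Tex15 (blue) fell at -0.98, and the intervals of Mov10l1 and of the genes in grey below it show those that did not pass the test.

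Mael and Tex15 came to similar levels in cKO. The FPKM of Mael was 0.174, 0.148 and 0.206 times that of Tex15 (control 1 to 3) and 0.920, 0.709 and 1.00 times (cKO 1 to 3). Of the summed FPKM of the 10 genes, Tex15 made up 33.2% ± 0.686 in control and 13.8% ± 2.73 in cKO (SD, n = 3), and Gtsf1 made up 37.9% ± 4.09 and 47.3% ± 7.23. Both genes were chosen for this comparison after their values were seen, and the ratios were not tested.

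The level of oocyte transcripts also differed between the groups. Whole ovary RNA cannot tell more oocytes, or larger ones, from more of a transcript per oocyte, nor fewer cells from less RNA per cell. The mean log2(FPKM + 1) of 30 oocyte marker genes stood at 5.31, 5.47 and 5.52 for control 1 to 3 and at 5.81, 5.58 and 6.16 for cKO 1 to 3. Their summed FPKM was 2321 to 2591 in control and 2951 to 4636 in cKO. Of the 29 tested, 6 rose, none fell and 23 did not pass. Their median change was 0.52, with 22 positive and 7 negative and a range of -0.67 to 1.43, so the list did not move as 1. Gdf9, an oocyte growth factor gene, ranged from 197 to 237 FPKM over controls and from 198 to 343 FPKM over cKO libraries (change 0.24, adjusted p 0.476 by limma). Ddx4, the germ cell helicase gene of the granules, ranged from 4.70 to 7.70 and from 7.83 to 13.6 FPKM (change 0.81, adjusted p 0.0845), with no overlap of the groups.

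Set against the oocyte list, Tex15 was still lower in cKO and no gene of the set passed as higher. Centring the libraries on that list moved the median change of all tested genes from 0.05 to -0.37. The change of Tex15 was then -1.40 with a standard error of 0.22, against 0.08 without centring. Mael had 0.66 (standard error 0.25, adjusted p 0.0507 by limma) and Piwil2 had 0.54 (0.28, adjusted p 0.142), so neither passed. The subtracted list level puts a shared error into every gene, so a p of this fit is not a measure of how firm a change is. Mov10l1 had 0.31 and Gtsf1 0.12. Asz1, Pld6 and Henmt1 changed sign, to -0.26, -0.07 and -0.22. Less the oocyte list, Mael lay at -3.12, -3.36 and -3.10 (control 1 to 3) and at -2.50, -2.47 and -2.63 (cKO 1 to 3), so its groups still did not overlap, whereas those of Piwil2, Mov10l1 and Gtsf1 did. In the lower direction the groups of Tex15, Piwil1, Piwil4 and Asz1 did not overlap. With this centring 2309 of all tested genes fell and 77 rose, so the lower direction was the more frequent one on this scale. The share of all tested genes whose groups did not overlap was not counted after centring, so these genes are not set apart by it. Piwil1 had -0.61 (standard error 0.30, unadjusted p 0.0403, adjusted p 0.123 by limma). Several genes of the oocyte list themselves rose, so this is a comparison with those genes and not a correction for oocyte number. The part of the oocyte level in the changes of the piRNA genes was not tested further.

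**Figure D4:**
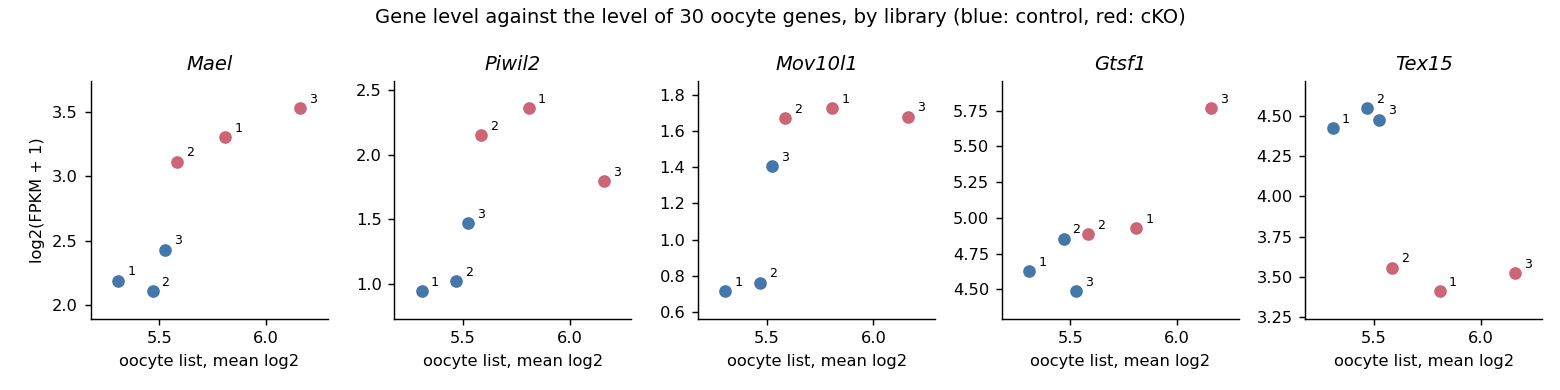
Level of 5 genes (y axes, log2(FPKM + 1), not starting at 0) against the mean log2 level of 30 oocyte genes (x axis) in each library; blue is control, red is cKO and digits number the libraries. Tex15 is lower and the oocyte list higher in all cKO libraries, and Gtsf1 is highest in cKO 3, where the oocyte level is 6.16.

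Other markers differed between the groups as well. The mean log2 level of 16 granulosa cell genes was 6.39 to 6.71 in control and 6.11 to 6.26 in cKO, and 6 of them fell and 2 rose. Stroma and smooth muscle genes (6.27 to 6.38 in control, 6.42 to 6.90 in cKO; 2 of 10 rose), endothelial genes (3.62 to 3.70 and 3.76 to 3.98; none of 10 passed) and testis and Sertoli cell genes (1.40 to 1.53 and 1.67 to 1.82; 3 of 7 tested rose) were higher in cKO by their list level. Of the tested testis and Sertoli cell genes, 5 had a positive and 2 a negative change. Cldn11, Aard and Gstm6 rose, while Sox9, at 1.20 FPKM in control and 0.996 in cKO (change -0.14), did not pass. Dmrt1 was under the filter. Blood and fat genes (5.28 to 5.57 in control, 4.14 to 5.24 in cKO, 1 of 8 rose) were lower in cKO by their list level. Oviduct and ciliated cell genes were mixed. Their list level was lower (1.79 to 2.01 and 1.26 to 1.69), while the median change of the 6 tested was 0.11, with 3 positive and 3 negative. Fam183b and Dnajb13 fell (log2 changes -2.37 and -2.42), and Ovgp1 (0.54), Tppp3 (0.43, groups apart) and Wfdc2 (0.24) were higher without passing. The ranges overlapped for theca (5.26 to 6.00 and 5.63 to 6.44), surface epithelium (3.38 to 3.55 and 2.82 to 4.23) and immune cells (1.46 to 1.79 and 1.77 to 3.38), where 0 of 10, 0 of 10 and 2 of 11 passed. The highest immune level was that of cKO 3, where S100a8 and S100a9, genes of neutrophils, stood at 219 and 307 FPKM, against at most 0.588 and 0.853 FPKM in the other libraries. The same library had the highest Gtsf1 level. The spermatid genes Acrv1 and Tnp1 were at 0 in all 6 libraries, Prm1 was at most 0.278 FPKM and Prm2 at most 1.29 FPKM; the marker genes named here were singled out after their values were seen. The part of these cell types in the piRNA gene values was not tested.

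Among 30 other genes of the piRNA pathway, all were found and 25 were tested, of which 1 rose, none fell and 24 did not pass. Their median change was 0.15, beside 0.05 over all tested genes, and 18 of 25 were positive, beside 8735 of 14934. The groups did not overlap for 9 of the 25 in the higher direction, Ddx4 and Tdrd9 among them, against 18% of all tested genes. In the lower direction this held for 2, against 12%. Tdrd9, a Tudor domain helicase gene of the nuclear branch, stood at 1.37 ± 0.137 FPKM in control and rose to 3.08 ± 0.568 in cKO (SD, n = 3), by 0.78 on the log2 scale (adjusted p 0.0325 by limma). The genes with the highest level did not pass. They were the chaperone gene Hsp90aa1 (366 FPKM over all libraries, change -0.04), the Tudor gene Tdrd5 (36.9 FPKM, change -0.57, adjusted p 0.135), the helicase gene Mov10 (23.5 FPKM, change -0.02) and the DNA methyltransferase gene Dnmt3a (17.2 FPKM, change 0.15). Tdrd5 had 44.2, 54.2 and 34.7 FPKM (control 1 to 3) and 33.1, 22.3 and 32.9 FPKM (cKO 1 to 3), so the groups did not overlap, with the lower level in cKO. Mov10, the relative of Mov10l1 that is active in many cell types, was at 25.3, 22.6 and 22.8 FPKM (control 1 to 3) and 27.0, 19.4 and 23.8 FPKM (cKO 1 to 3), and its groups overlapped.

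The Argonaute and Dicer genes, which serve microRNAs and small interfering RNAs, gave no call. All 10 were tested, none passed, and their changes ran from -0.03 to 0.24 with a median of 0.11. Drosha, the nuclear nuclease gene, had means of 25.7 ± 0.859 and 28.3 ± 3.16 FPKM, control before cKO (SD, n = 3). Prkra and Tarbp2, partners of Dicer, had 25.7 ± 0.390 and 25.2 ± 2.26 FPKM and 21.3 ± 0.768 and 22.4 ± 2.77 FPKM. Ago1 had 18.3 ± 0.725 and 20.1 ± 0.860 FPKM, at an adjusted p of 0.330 by limma. No test of a difference between the 3 lists was made.

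**Figure D5:**
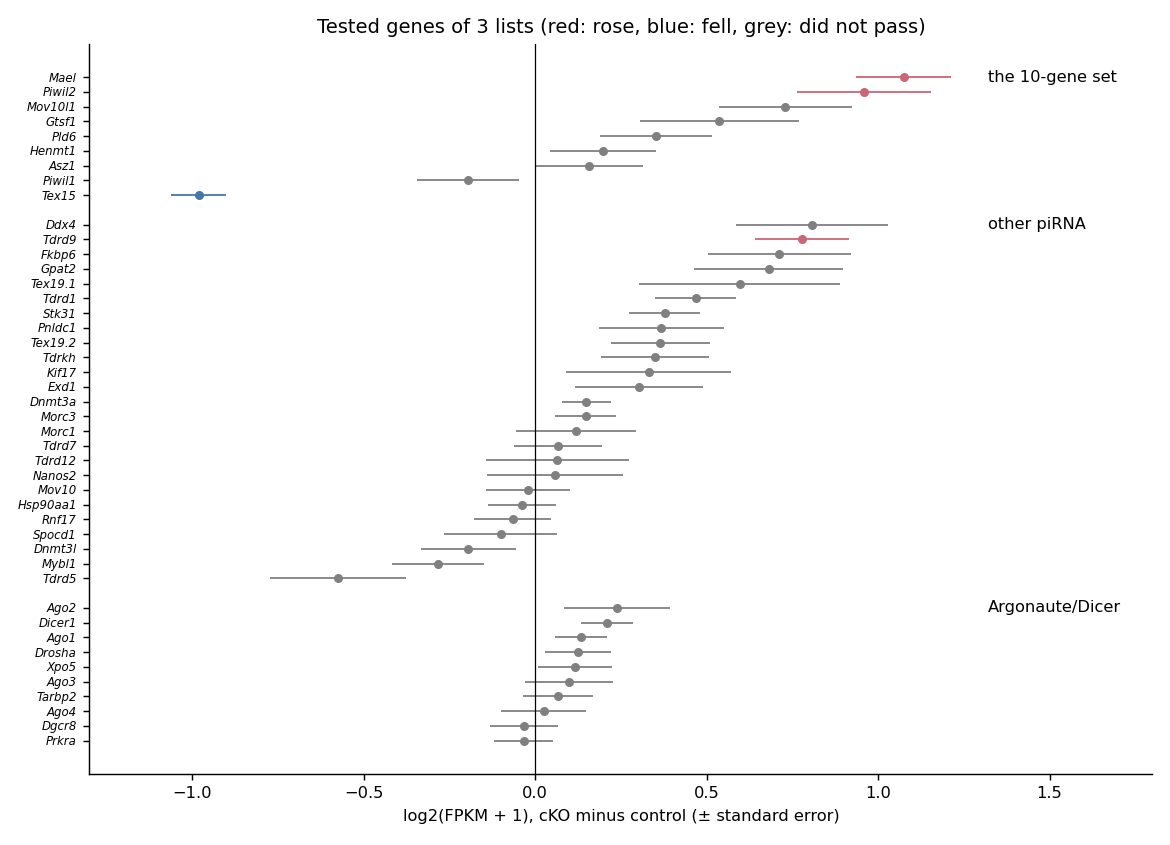
Change on the log2(FPKM + 1) scale (x axis, cKO minus control, ± standard error) of every tested gene of the 10-gene set, of the other piRNA pathway list and of the Argonaute and Dicer list (rows). Mael, Piwil2 and Tdrd9 (red) rose and Tex15 (blue) fell; all Argonaute and Dicer genes lie between -0.03 and 0.24.

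For the genes that passed, the tested genes with the most similar profile over the 6 libraries were looked up, by the root mean square difference of centred log2(FPKM + 1) values among 13025 genes with a proper name. Such a likeness largely reflects a similar change between the groups. Nearest to Mael were Zp2, an egg coat gene (0.13), Figla, an oocyte transcription factor gene (0.14), and Wnt4, a signalling gene of the ovary (0.15). Zp2 rose from 241 ± 17.5 to 452 ± 72.3 FPKM and Figla from 6.59 ± 1.89 to 13.7 ± 0.812 FPKM (SD, n = 3), and both belong to the oocyte list. Nearest to Piwil2 were Srgap3, Itga6 and Tgfbi, at 0.05, 0.10 and 0.11. Nearest to Tex15 were Tmsb15b2, Gas2l3 and Bub1, at 0.05, 0.08 and 0.09. Tmsb15b2 fell from 55.8 ± 2.34 to 27.9 ± 0.713 FPKM, with close paralogs that can share its fragments, and Bub1, a kinase gene of the spindle checkpoint, fell from 17.2 ± 0.458 to 9.34 ± 0.552 FPKM.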

How the data were processed

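The deposited table held FPKM for Ensembl genes, made by the authors from 6 libraries. TopHat2 2.0, Cufflinks 2.0 and the build mm10 are named per the submitters' processing notes, without saying what each did. That the deposited values are FPKM was read from the naming of Cufflinks and from the values. Annotation, strand setting and any rescaling were not given in the sources used here. FPKM is relative to the library total, so abundant transcripts that rise lower all others.

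Groups follow the genotype label, and the replicates, each a pool of animals, were numbered by accession as names only. Limma 3.58.1 in R 4.3.3 was fitted (lmFit, eBayes with trend) on log2(FPKM + 1) to the 14934 genes whose FPKM averaged 0.5 or more across all 6, with Benjamini-Hochberg adjustment over all of them. The procedure was tested on simulated data. Depth was estimated from FPKM below 0.15 in genes with 1 transcript, as the most frequent depth at which such a value is 1 fragment; fragments per gene use the longest coding transcript less 150 bases, and cover counting error only. Coordinates and overlaps are from GENCODE M21 (GRCm38), and promoters from RefSeq (GRCm38.p6).

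The 10 genes and all lists were chosen with earlier results of these data known. The alternatives were other pseudocounts, filters, scalings, weights and a robust fit, and fits with libraries left out. List genes were matched by symbol, otherwise by Ensembl identifier. Named genes are the 10 genes, Gdf9, Ddx4, passing members and the 4 highest members of the 2 pathway lists, and the 3 nearest profiles of each passing gene. Names of gene models and clones were left out of the profiles. Results of some genes, the deleted gene among them, are not reported here. Transposon transcripts and piRNAs were not analysed here.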

Additional observations from a re-analysis of the deposited data

How the results depend on the processing

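Tex15, Mael and Piwil2 kept their direction in all 17 alternatives and stayed past the threshold in 13, 11 and 10 of them. Among the 10 genes, the number that rose was 2 and ranged from 0 to 3 with 1 library left out, and the number that fell was 1 and ranged from 0 to 1. Over all genes, the counts with 1 library left out ranged from 0 to 307 genes that rose and from 2 to 353 that fell, against 334 and 312. At most 4 genes in either direction passed without control 1, control 2 or cKO 1, with 2477, 2266 and 2837 genes at an unadjusted p below 0.05 against 3630. Without cKO 2, 40 rose and 38 fell, and without cKO 3, 209 and 176. With no filter on low values 4 genes rose and 24 fell, and 0 of the 10 rose. The 3 controls against cKO 1, the libraries of the first range of label numbers, gave 22 and 1, with 0 of the 10 rising and 0 falling; the lone cKO library was assumed to vary like the controls, and the other range holds cKO libraries only. Centring on the median gave 577 genes that fell, beside 254 that rose, and centring on the oocyte list gave 77 and 2309, with 0 of the 10 rising. Array weights gave 1041 and 743. Leaving out control 3 and cKO 3 together gave 204 that rose. Quantile normalisation gave 270 and 421. Sign changed for genes that did not pass: Asz1 to -0.262 on the oocyte list, -0.0840 against cKO 1 alone and from -0.00783 (without cKO 3) to 0.276 (without cKO 1) with 1 library left out, and Pld6 and Henmt1 to -0.0661 and -0.221 on the oocyte list. The cause of these differences was not tested. No paired analysis was possible because neither genotype has numbered replicates in its labels. Piwil1 and Mov10l1 could not be fitted with a mean FPKM of at least 2, and low depth limits Piwil1 and Piwil4.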
